A study of Mus musculus with 10 samples.

Results

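The 8 genes described here encode cytosolic fatty acid binding proteins (Fabp1, Fabp2, Fabp3, Fabp4, Fabp5 and Fabp7) and acyl-CoA binding proteins (Dbi and Acbd5). They were chosen by name from the 56748 genes of the count table, and each name matched 1 gene. RNA was sequenced from primary hepatocytes of wild-type mice that had been kept overnight in medium conditioned by cultured fat cells. In the Mttp_KO_CM group the medium came from fat cells of male mice lacking Mttp in adipose tissue (A-Mttp–/–). In the Mttp_flox_CM group it came from fat cells of male Mttp f/f mice, which carry the floxed alleles without the deletion. Both kinds of fat donor had eaten an obesogenic diet for 6 months, and the labels give 3 donor mice. Stromal vascular cells of their inguinal fat had been turned into adipocytes with a cocktail that held insulin, dexamethasone, IBMX, indomethacin and the PPARγ agonist rosiglitazone, and the adipocytes were starved overnight before the medium was taken. The hepatocytes of both groups were therefore wild type, and the groups differed in the medium. The age of the mice, the Cre driver of the deletion and the source of the wild-type hepatocytes were not stated in the labels. Each group had 5 libraries.

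Fatty acids are poorly soluble in water, and cells carry them through the cytosol in small barrel-shaped binding proteins of the Fabp family, each with a typical tissue. Once a fatty acid has been joined to coenzyme A, the acyl-CoA is carried by proteins with an acyl-CoA binding domain, of which Dbi is the most widespread. In liver the main fatty acid carrier is Fabp1, which also delivers ligands to the nuclear receptor PPARα and is itself a known PPARα target gene.

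The libraries held 14283517 to 17178131 counts in Mttp_KO_CM and 14199798 to 15950530 in Mttp_flox_CM, with 21344 to 21960 genes detected in Mttp_KO_CM and 21476 to 21926 in Mttp_flox_CM. Mttp was read in the hepatocytes at 846 ± 20.1 CPM (TMM-scaled counts relative to the library size; SD, n = 5) in Mttp_KO_CM and 561 ± 17.1 CPM in Mttp_flox_CM, which is no check of the labels because the deletion was in the fat donors. The labelled cell type was borne out by its markers, with Alb (albumin) at 25098 CPM in Mttp_KO_CM and 29138 CPM in Mttp_flox_CM. Of 14 hepatocyte markers tested, 2 were higher and 11 lower in Mttp_KO_CM, with summed levels of 48669 to 50368 CPM in Mttp_KO_CM and 58592 to 61357 CPM in Mttp_flox_CM. Markers of other liver cells were also present, and most of those of endothelial cells and macrophages were lower in Mttp_KO_CM. All 18 endothelial markers tested were lower, with summed levels of 1565 to 1655 CPM in Mttp_KO_CM and 2793 to 2981 CPM in Mttp_flox_CM. Of 15 macrophage markers 14 were lower and 1, Cd68, was higher, with summed levels of 772 to 875 CPM in Mttp_KO_CM and 1119 to 1244 CPM in Mttp_flox_CM. Of 7 cholangiocyte markers tested 3 were lower and none higher, with sums of 307 to 373 CPM in Mttp_KO_CM and 549 to 604 CPM in Mttp_flox_CM. Lymphocyte and neutrophil markers summed to 1.89 to 2.85 CPM in Mttp_KO_CM and 1.50 to 2.36 CPM in Mttp_flox_CM, and the 1 tested did not pass. Fewer cells of a type and less RNA per cell cannot be told apart in such bulk samples. The labels do not say whether the 5 libraries per group were separate cultures or separate animals. Nor do they say whether the medium of the 3 fat donor mice was shared by the libraries of a group. If it was shared, a difference between batches of medium could not be told apart from the donors' genotype. P-values here therefore reflect library-to-library spread, possibly a technical one.

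The Mttp_KO_CM libraries, which also held RNA of other liver cells, had far more Fabp1 RNA, more Fabp2, moderately more Dbi and Acbd5, and less Fabp7. Fabp4 was 1.09-fold higher, Fabp5 did not pass the test, and Fabp3 was barely detected. The calls of Fabp7 and Fabp4 were each lost under some of the alternative settings given below. Of the 8 genes, 7 passed the filter on low counts and were tested. With edgeR's quasi-likelihood test and an adjusted p under 0.05, 5 of them were higher in Mttp_KO_CM, against a background of 18.2% of the 14183 genes tested. Only Fabp7 was lower, where 18.1% of all genes tested were lower. Called in either direction were 36.4% of all genes tested. The median log2 fold change of all genes tested was 0.00, and 86.7% of the genes called higher differed by less than 1.5-fold. The groups were fully apart in CPM for Fabp1, Fabp2, Dbi, Acbd5 and Fabp7, which is 5 of 7, beside 25.7% of all genes tested.

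**Figure D1:**
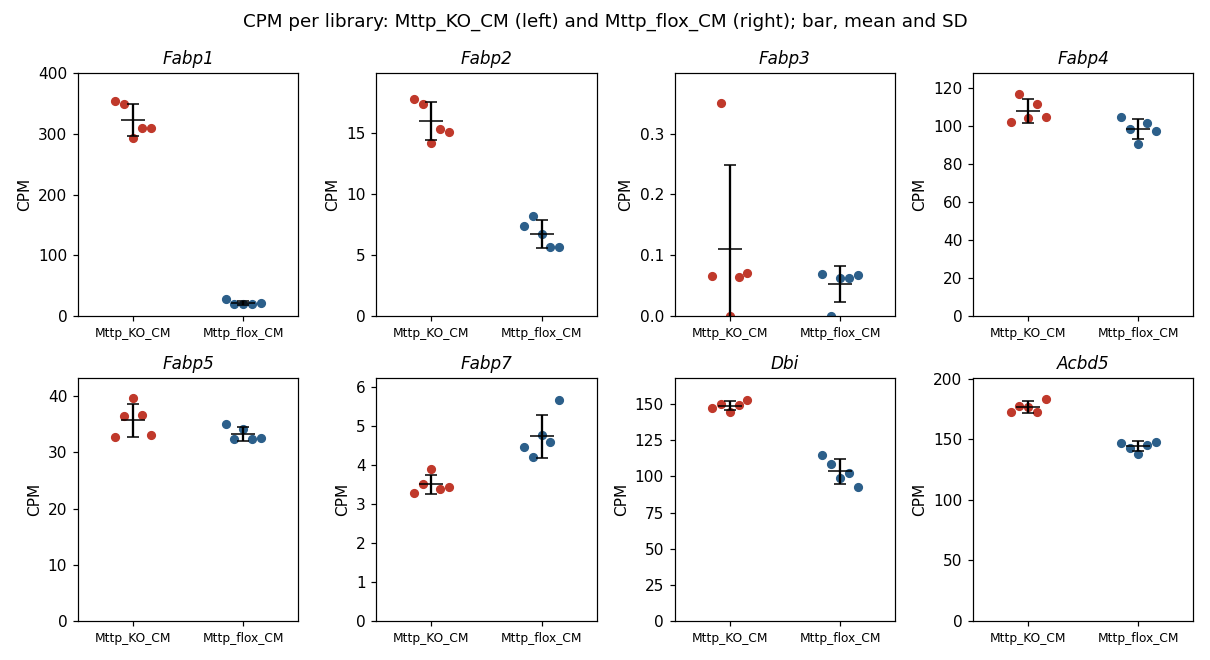
CPM of each of the 8 genes in every library, with Mttp_KO_CM on the left and Mttp_flox_CM on the right of each panel. Points are libraries, horizontal marks are means and error bars are SD (n = 5), cut at 0 for Fabp3. The axes start at 0 and differ between panels. The groups are furthest apart for Fabp1, at 323 CPM in Mttp_KO_CM and 21.9 CPM in Mttp_flox_CM, and Fabp7 is the gene whose Mttp_KO_CM libraries all lie below Mttp_flox_CM.

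Fabp1 (ENSMUSG00000054422, chr6:71176811-71182007, plus strand, GRCm39), the liver fatty acid binding protein, was the member that differed most. It had 354, 350, 294 and 309 CPM in Mttp_KO_CM replicates 1 to 4 and 310 CPM in the unnumbered Mttp_KO_CM library. In Mttp_flox_CM it had 28.3, 20.1, 19.8 and 20.0 CPM in replicates 1 to 4 and 21.3 CPM in the unnumbered library. The lowest Mttp_KO_CM library was thus far above the highest Mttp_flox_CM library. The means were 323 ± 26.7 CPM in Mttp_KO_CM and 21.9 ± 3.59 CPM in Mttp_flox_CM (SD, n = 5 each). The log2 fold change was 3.89 (SE 0.070), or 14.8-fold (edgeR, adjusted p = 3.2e-23). The counts behind it were 24542 in all Mttp_KO_CM libraries together and 1661 in all Mttp_flox_CM libraries. Among the 2585 genes called higher, 6 including Fabp1 itself had a fold change at least this large.

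Fabp2 (ENSMUSG00000023057, chr3:122688721-122693155, plus strand), the intestinal fatty acid binding protein, is best known for carrying absorbed dietary fatty acids in enterocytes. Its levels were 17.8, 17.4, 14.2 and 15.3 CPM in Mttp_KO_CM replicates 1 to 4 and 15.1 CPM in the unnumbered library. The Mttp_flox_CM libraries had 7.40, 8.23, 6.76 and 5.65 CPM in replicates 1 to 4 and 5.66 CPM in the unnumbered library. Every Mttp_KO_CM library lay above every Mttp_flox_CM library. Fabp2 averaged 15.9 ± 1.57 CPM in Mttp_KO_CM and 6.74 ± 1.12 CPM in Mttp_flox_CM (SD, n = 5 each). The log2 fold change was 1.24 (SE 0.105), or 2.37-fold (edgeR, adjusted p = 7.2e-10), and 95 of the genes called higher had a fold change at least as large. A long noncoding RNA gene, 4933405D12Rik, overlaps Fabp2 on the opposite strand and had 16 counts in all libraries together, against 1722 for Fabp2.

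Enterocyte genes were looked at because Fabp2 is typical of that cell. Of 8 enterocyte markers, Sis, Cdx1 and Cdx2 had 0 counts in every library, and the others were read. Vil1 had 171 counts in all Mttp_KO_CM libraries together and 202 in all Mttp_flox_CM libraries. In the same order Cdh17 had 65 and 40, Alpi 47 and 41, and Lct 4 and 3. Apoa4, an apolipoprotein that mouse liver also makes, was the 1 of 3 tested that rose, with 169 ± 8.64 CPM in Mttp_KO_CM and 137 ± 10.2 CPM in Mttp_flox_CM (log2 0.31, edgeR adjusted p = 4.1e-06). The remaining markers tested were Vil1 with a log2 change of -0.23 and Cdh17 with 0.69, neither past the threshold.

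Among the Mttp_KO_CM libraries Fabp1 and Fabp2 were high and low in much the same places. Both were highest in replicates 1 and 2 and lowest in replicate 3. On the log2 scale, Fabp1 deviated from its group mean by 0.13, 0.12, -0.13 and -0.06 in Mttp_KO_CM replicates 1 to 4 and by -0.06 in the unnumbered library. For Fabp2 the deviations were 0.16, 0.13, -0.16, -0.06 and -0.08 in the same libraries. The median deviation of 27 other PPARα targets in those libraries ran from -0.03 to 0.04, and it was negative in replicate 2, where both Fabp genes were high. In Mttp_flox_CM the genes peaked in different libraries. Fabp1 was highest in replicate 1, where it deviated by 0.38, while Fabp2 was highest in replicate 2, where it deviated by 0.30. These are descriptions of 5 libraries a group.

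The promoters of the genes with the largest differences, Fabp1 and Fabp2, are shown because PPARα binds with RXR to a direct repeat known as DR1. The letters searched for were AGGTCA, any 1 base, and AGGTCA again, on both strands, so a full match also holds AGGTCA by itself. Each line gives the 250 bases before the annotated start, 5′ to 3′ on the gene's strand, with the window nearest to DR1 in capitals. The sequences are RefSeq's, on build GRCm38.p6, which differs from the GRCm39 build of the counts. The Fabp1 window is chr6:71199629-71199878 on the plus strand and the Fabp2 window chr3:122894822-122895071 on the plus strand.
Fabp1: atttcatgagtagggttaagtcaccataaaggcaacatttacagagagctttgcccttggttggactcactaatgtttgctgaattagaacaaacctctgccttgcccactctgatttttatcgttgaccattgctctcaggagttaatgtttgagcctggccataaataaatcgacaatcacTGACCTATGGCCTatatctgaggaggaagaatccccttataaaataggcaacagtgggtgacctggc
Fabp2: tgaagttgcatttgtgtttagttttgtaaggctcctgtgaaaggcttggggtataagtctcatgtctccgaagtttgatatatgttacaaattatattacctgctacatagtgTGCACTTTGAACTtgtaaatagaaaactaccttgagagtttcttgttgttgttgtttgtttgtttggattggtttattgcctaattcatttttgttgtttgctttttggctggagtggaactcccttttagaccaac
In Fabp1 the capitals, at positions -67 to -55 from the start, matched DR1 on the opposite strand with 1 mismatch in the 12 fixed letters. Of all 32851 RefSeq promoter windows of that length, 0.484% held a match with 1 mismatch or none. The same window of Fabp1 held TATAAA, found on the gene's strand in 7.59% of all windows. In Fabp2 the nearest window, at -137 to -125, had 3 mismatches, and 21.3% of all windows held a match that close. RefSeq promoter entries were matched for 6 of the 8 genes, 8 windows in all, and not for Fabp4 and Fabp5. With up to 1 mismatch the count was 1 of these 8 windows and 0 of 24 windows of other PPARα targets. With up to 2 mismatches it was 1 of 8, 4 of 24 and 3.24% of all windows. A match is a description of letters, not a bound site.

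Dbi (ENSMUSG00000026385, chr1:120041010-120048808, minus strand), also called acyl-CoA binding protein, carries medium- and long-chain acyl-CoA esters in the cytosol. It had 147, 150, 145 and 150 CPM in Mttp_KO_CM replicates 1 to 4 and 153 CPM in the unnumbered library. In Mttp_flox_CM it had 115, 109, 99.1 and 102 CPM in replicates 1 to 4 and 92.7 CPM in the unnumbered library. All Mttp_KO_CM libraries lay above all Mttp_flox_CM libraries. The Mttp_KO_CM libraries also lay closer together, with means of 149 ± 2.98 CPM in Mttp_KO_CM and 104 ± 8.73 CPM in Mttp_flox_CM (SD, n = 5 each). Dbi rose 1.44-fold (log2 0.52, SE 0.043, edgeR adjusted p = 4.7e-10).

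Acbd5 (ENSMUSG00000026781, chr2:22958179-23005570, plus strand) is a peroxisomal membrane protein that binds very long chain acyl-CoA and tethers peroxisomes to the endoplasmic reticulum through Vapa and Vapb. Its levels in Mttp_KO_CM were 173, 178, 177 and 173 CPM in replicates 1 to 4 and 184 CPM in the unnumbered library. Those in Mttp_flox_CM were 147, 143, 138 and 146 CPM in replicates 1 to 4 and 148 CPM in the unnumbered library. The groups did not overlap. Acbd5 averaged 177 ± 4.63 CPM in Mttp_KO_CM and 144 ± 4.01 CPM in Mttp_flox_CM (log2 0.29, SE 0.031, edgeR adjusted p = 3.7e-08). Its difference, 1.23-fold, was among the 86.7% of higher genes under 1.5-fold.

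Of the other proteins with an acyl-CoA binding domain, 4 of 7 were tested and 1 changed. Eci2, an enoyl-CoA isomerase of peroxisomes and mitochondria, rose to 169 ± 4.13 CPM in Mttp_KO_CM, against 70.9 ± 3.16 CPM in Mttp_flox_CM (log2 1.25, edgeR adjusted p = 3.6e-19). Acbd3, Acbd4 and Acbd6 had log2 changes of -0.06, -0.01 and 0.13 and did not pass. Around Acbd5, 11 genes of peroxisomal very long chain metabolism and tethering were tested, with a median log2 change of 0.51. Of these 9 rose and 1 fell, beside 18.2% and 18.1% of all genes tested. The peroxisomal transporter Abcd3 rose by 1.39 and the bifunctional enzyme Ehhadh by 2.24 on the log2 scale. The tether partner Vapa rose by 0.10 on the log2 scale, and Vapb had a change of -0.05 that did not pass.

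**Figure D2:**
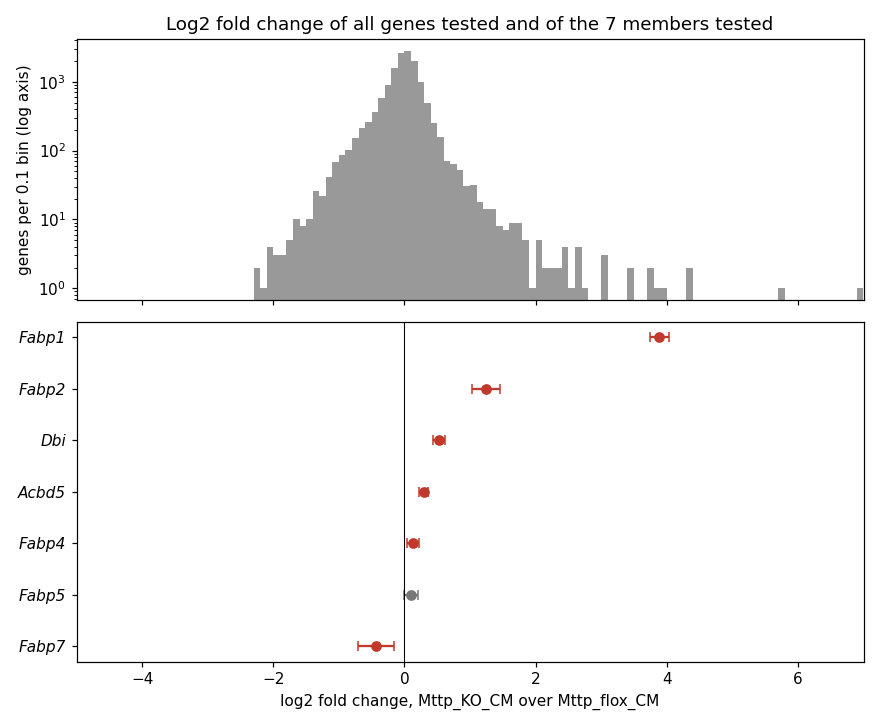
Log2 fold change of Mttp_KO_CM over Mttp_flox_CM. The upper panel counts all 14183 genes tested in bins of 0.1 on a log axis. The lower panel gives the 7 genes tested, with 95% confidence intervals from edgeR, red where the adjusted p was under 0.05 and grey for Fabp5. Fabp1 lies at 3.89, in the far right tail of all genes, whereas Fabp4 and Fabp5 lie near 0 and Fabp7 at -0.43.

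Fabp4 (ENSMUSG00000062515, chr3:10269148-10273636, minus strand) is the fatty acid binding protein of adipocytes, macrophages and capillary endothelium. It had 102, 117, 104 and 111 CPM in Mttp_KO_CM replicates 1 to 4 and 104 CPM in the unnumbered library. In Mttp_flox_CM it had 105, 98.1, 90.4 and 101 CPM in replicates 1 to 4 and 97.1 CPM in the unnumbered library. The groups overlapped, and 2 of 5 Mttp_KO_CM libraries lay above the highest Mttp_flox_CM library. Fabp4 averaged 108 ± 6.22 CPM in Mttp_KO_CM and 98.3 ± 5.36 CPM in Mttp_flox_CM, 1.09-fold higher (log2 0.13, SE 0.043, 95% interval 0.04 to 0.22, edgeR adjusted p = 0.019). The call was lost in edgeR without Mttp_KO_CM replicate 2 (adjusted p = 0.0824), without Mttp_KO_CM replicate 4 (0.0508) or without Mttp_flox_CM replicate 3 (0.0954). It was also lost with library size as the only scaling (edgeR adjusted p = 0.108).

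Fabp5 (ENSMUSG00000027533, chr3:10077608-10081667, plus strand), the epidermal fatty acid binding protein, is also made by macrophages and endothelial cells. Its Mttp_KO_CM libraries had 32.6, 36.4, 39.7 and 36.6 CPM in replicates 1 to 4 and 33.0 CPM in the unnumbered library. The Mttp_flox_CM libraries had 35.1, 32.4, 34.2 and 32.4 CPM in replicates 1 to 4 and 32.6 CPM in the unnumbered library. The groups overlapped, with means of 35.7 ± 2.91 CPM in Mttp_KO_CM and 33.3 ± 1.24 CPM in Mttp_flox_CM. The log2 change of 0.10 (SE 0.054) had a 95% interval of -0.01 to 0.21 and did not pass (edgeR, adjusted p = 0.155). Fabp4 and Fabp5 sit in 1 stretch of chromosome 3 with other members of the family. Of those neighbours Pmp2, the myelin member, had 0 counts, Fabp9 had 1 and Fabp12 had 4 in all libraries together, while Fabp4 had 15660 and Fabp5 5263.

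Fabp7 (ENSMUSG00000019874, chr10:57660977-57664546, plus strand), the brain fatty acid binding protein, is known from glia and, in mouse liver, from Kupffer cells. It was rare, with 3.28, 3.51, 3.90 and 3.38 CPM in Mttp_KO_CM replicates 1 to 4 and 3.42 CPM in the unnumbered library. The Mttp_flox_CM libraries had 4.47, 4.22, 4.77 and 4.59 CPM in replicates 1 to 4 and 5.66 CPM in the unnumbered library. Every Mttp_KO_CM library lay below every Mttp_flox_CM library. These levels rest on 267 counts in all Mttp_KO_CM libraries together and 361 in all Mttp_flox_CM libraries. Fabp7 averaged 3.50 ± 0.240 CPM in Mttp_KO_CM and 4.74 ± 0.551 CPM in Mttp_flox_CM, a log2 change of -0.43 (SE 0.14, edgeR adjusted p = 0.0133). Without both unnumbered libraries the log2 change was -0.36 and did not pass (edgeR, adjusted p = 0.0755). Of 9 glial markers, 3 were tested and none passed in edgeR (Nes, at an unadjusted p of 0.0238, was the 1 gene under 0.05). Sox2 and Sox10 had 0 counts in every library, and the others were read. The list summed to 15.1 to 17.2 CPM in Mttp_KO_CM and 16.9 to 19.4 CPM in Mttp_flox_CM.

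Fabp3 (ENSMUSG00000028773, chr4:130202388-130209256, plus strand), the heart and muscle fatty acid binding protein, had 8 counts in all Mttp_KO_CM libraries together and 4 in all Mttp_flox_CM libraries. By library it had 1, 5, 0 and 1 counts in Mttp_KO_CM replicates 1 to 4 and 1 in the unnumbered library. It had 1, 0, 1 and 1 counts in Mttp_flox_CM replicates 1 to 4 and 1 in the unnumbered library. This is too little for a comparison, and with no filter on low counts edgeR gave a log2 change of 0.93 (SE 1.02, adjusted p = 0.591). A count of 0 allows up to 0.177 CPM in Mttp_KO_CM replicate 3 and up to 0.200 CPM in Mttp_flox_CM replicate 2, counting error only. Zcchc17 overlaps Fabp3 on the opposite strand and had 377 to 489 counts a library. Among 10 heart and skeletal muscle markers, Myh6, Myh7, Tnni3, Myl2 and Ckm had 0 counts in every library, and the others were read. The list summed to 0.642 to 1.33 CPM in Mttp_KO_CM and 0.621 to 1.54 CPM in Mttp_flox_CM. Only 1 of its genes was tested, with a log2 change of -0.11 that did not pass.

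Because endothelial and macrophage markers were lower in Mttp_KO_CM, Fabp4, Fabp5 and Fabp7 were also set against them within each library. Fabp4 stood at 66.9 ± 2.93 CPM per 1000 CPM of summed endothelial markers in Mttp_KO_CM and at 34.1 ± 2.19 in Mttp_flox_CM (SD, n = 5 each). Against macrophage markers Fabp4 stood at 130 ± 10.4 CPM per 1000 CPM in Mttp_KO_CM and 83.2 ± 4.21 in Mttp_flox_CM. The log2 differences of these ratios were 0.97 and 0.64. Fabp5 stood at 22.2 ± 1.59 per 1000 endothelial CPM in Mttp_KO_CM and 11.6 ± 0.723 in Mttp_flox_CM. Its ratio to macrophage markers was 43.1 ± 3.42 in Mttp_KO_CM and 28.3 ± 2.05 in Mttp_flox_CM, and the log2 differences were 0.94 and 0.61. With the marker sums lower in Mttp_KO_CM and Fabp4 and Fabp5 close to level, these differences follow from values already given, so they are a description with no test.

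For Fabp7 the ratio depended on the marker list. Against endothelial markers it was 2.17 ± 0.132 CPM per 1000 CPM in Mttp_KO_CM and 1.64 ± 0.163 in Mttp_flox_CM (log2 difference 0.41), again a description with no test. Against macrophage markers it was 4.23 ± 0.266 in Mttp_KO_CM and 4.02 ± 0.472 in Mttp_flox_CM, and the groups overlapped. The log2 difference was 0.08, likewise a description with no test, as Fabp7 and the macrophage sum were both lower in Mttp_KO_CM. That difference was 0.04 without Mttp_flox_CM replicate 2, 0.05 without Mttp_KO_CM replicate 3, 0.05 without Mttp_flox_CM replicate 4 and 0.14 without the unnumbered Mttp_flox_CM library. It was 0.17 without both unnumbered libraries and 0.20 with the mean log2(CPM + 1) of the list in place of the sum. The part of the lower marker levels in the values of Fabp4, Fabp5 and Fabp7 was not tested.

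**Figure D3:**
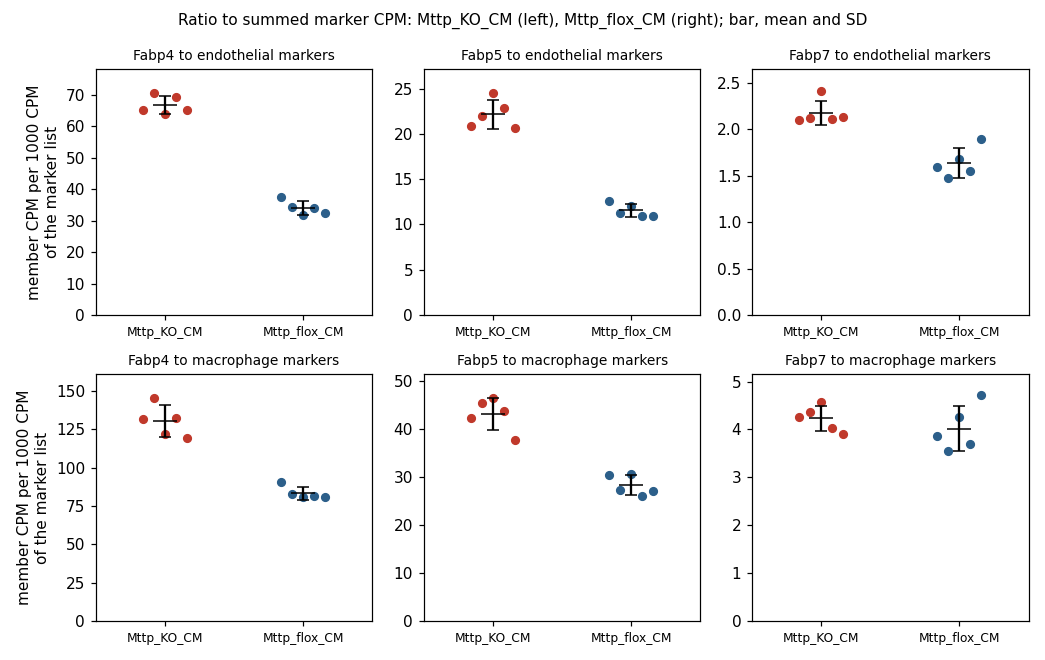
CPM of Fabp4, Fabp5 and Fabp7 per 1000 CPM of the summed endothelial markers (top) and macrophage markers (bottom), with Mttp_KO_CM on the left and Mttp_flox_CM on the right of each panel. Points are libraries, marks are means and error bars are SD (n = 5). The libraries of the groups do not overlap in any panel except Fabp7 against macrophage markers, at 4.23 in Mttp_KO_CM and 4.02 in Mttp_flox_CM.

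Adipocyte markers were examined because Fabp4 is typical of fat cells and the medium came from them. Lep and Cfd had 0 counts in every library, and Adipoq, the adiponectin gene, had 4 counts in all Mttp_KO_CM libraries together and 0 in Mttp_flox_CM. In the same order Plin1 had 31 and 9 counts, Slc2a4 2 and 2, and Retn 0 and 3. Of 10 adipocyte markers 4 were tested and 2 rose. Lipe, hormone-sensitive lipase, had 20.0 ± 1.67 CPM in Mttp_KO_CM and 9.49 ± 0.216 CPM in Mttp_flox_CM (log2 1.07, edgeR adjusted p = 2.7e-11). Cidea, a lipid droplet protein, rose by 0.71 on the log2 scale (edgeR, adjusted p = 0.00779). The others tested, Adrb3 and Nnat, had log2 changes of -0.07 and 0.17 and did not pass. The list summed to 31.5 to 36.7 CPM in Mttp_KO_CM and 20.9 to 22.3 CPM in Mttp_flox_CM, and its part in the values of Fabp4 was not tested.

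Levels of the 8 genes were compared with each other per length. On the deposited FPKM scale the order in Mttp_KO_CM was Fabp1 at 582 ± 47.8, Dbi at 104 ± 2.11, Fabp4 at 23.8 ± 1.39, Acbd5 at 18.0 ± 0.468, Fabp2 at 16.4 ± 1.61, Fabp5 at 9.95 ± 0.813, Fabp7 at 2.78 ± 0.191 and Fabp3 at 0.133 ± 0.166 FPKM (SD, n = 5). In Mttp_flox_CM it was Dbi at 72.4 ± 6.02, Fabp1 at 39.4 ± 6.42, Fabp4 at 21.8 ± 1.19, Acbd5 at 14.7 ± 0.419, Fabp5 at 9.29 ± 0.334, Fabp2 at 6.94 ± 1.15, Fabp7 at 3.77 ± 0.442 and Fabp3 at 0.0633 ± 0.0356 FPKM. Neighbours in these orders had libraries that did not overlap, except Acbd5 and Fabp2 in Mttp_KO_CM. On FPKM, Fabp1 thus had the highest level of the 8 genes in Mttp_KO_CM, whereas Dbi had it in Mttp_flox_CM.

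The listed gene length behind FPKM bears on this order. For Fabp4 the listed length is 4489 bases, equal to its whole span, whereas the principal mRNA in GENCODE M21 has 896 bases. For Fabp5 the lengths are 3567 and 987 bases, for Dbi 1422 and 569, and for Fabp1 and Fabp2 they are equal. Per kb of the principal mRNA, a scale chosen after seeing the data, Fabp4 had 120 ± 6.95 CPM per kb in Mttp_KO_CM and 110 ± 5.98 in Mttp_flox_CM. Fabp1 had 585 ± 48.2 in Mttp_KO_CM and 39.6 ± 6.49 in Mttp_flox_CM on that scale, and Dbi had 262 ± 5.24 in Mttp_KO_CM and 182 ± 15.3 in Mttp_flox_CM. On that scale Fabp4 therefore lay above Fabp1 in Mttp_flox_CM and below it in Mttp_KO_CM. The libraries of Fabp1 and Acbd5, and those of Fabp2 and Fabp7, then overlapped in Mttp_flox_CM.

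As a share of the summed level of the 6 Fabp genes, Fabp1 made up 91.6 ± 0.490% of FPKM in Mttp_KO_CM and 48.3 ± 3.01% in Mttp_flox_CM (SD, n = 5 each). Per kb of the principal mRNA its share was 76.7 ± 1.53% in Mttp_KO_CM and 20.1 ± 1.98% in Mttp_flox_CM. Fabp4 had 15.8 ± 1.04% in Mttp_KO_CM and 56.0 ± 1.75% in Mttp_flox_CM on the mRNA scale. The summed level itself was 635 ± 49.4 FPKM in Mttp_KO_CM and 81.2 ± 7.76 FPKM in Mttp_flox_CM, or 762 ± 50.7 CPM per kb of mRNA in Mttp_KO_CM and 196 ± 12.2 in Mttp_flox_CM. On both lengths Fabp1 was the largest of the 6 in Mttp_KO_CM, whereas in Mttp_flox_CM the largest was Fabp1 on FPKM and Fabp4 per mRNA.

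**Figure D4:**
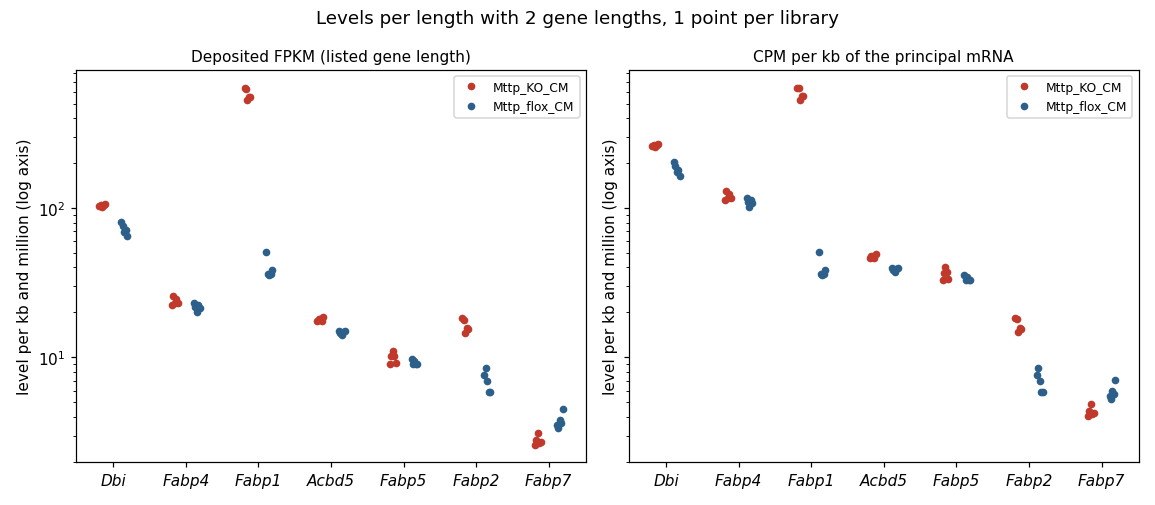
Levels per length of the 7 genes tested, on log axes, from the deposited FPKM (left) and as CPM per kb of the principal mRNA (right). Each point is 1 library, with Mttp_KO_CM in red left of Mttp_flox_CM in blue. Fabp1 leads in Mttp_KO_CM on both scales, and in Mttp_flox_CM it lies above Fabp4 on FPKM (39.4 against 21.8) and below it per mRNA (39.6 against 110).

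Genes that act before and after the binding proteins were counted from lists of known members, chosen with earlier results of these data known. Their medians stand beside a median of 0.00 over all genes tested. Their counts stand beside 18.2% of all genes tested called higher and 18.1% called lower. Of 10 genes tested for fatty acid entry and activation, 6 rose and 0 fell, with a median log2 change of 0.28. The uptake receptor Cd36 had 948 ± 53.2 CPM in Mttp_KO_CM and 540 ± 24.6 CPM in Mttp_flox_CM (log2 0.81). Acsl1, which joins long-chain fatty acids to coenzyme A, had 466 ± 19.9 CPM in Mttp_KO_CM and 115 ± 4.71 CPM in Mttp_flox_CM (log2 2.02). The transporter and very long chain acyl-CoA synthetase Slc27a2 rose by 0.86, whereas Slc27a5 and Acsl5, at 0.10 and 0.03, did not pass.

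Further along, 16 of 17 genes of mitochondrial fatty acid oxidation rose, with a median log2 change of 0.82, and Echs1, an enoyl-CoA hydratase, was at 0.00. Cpt1a, the carnitine transferase that admits acyl groups to mitochondria, rose by 0.85 and Hadha, of the trifunctional protein, by 1.05. Of 10 genes of glycerolipid synthesis and droplet coats, 7 rose and 2 fell, with a median of 0.45. Plin2, the main droplet coat protein of hepatocytes, rose by 1.14 and Cidec by 1.38, whereas Plin4 fell by 0.35 and Lpin1 by 0.16 on the log2 scale. Of 27 PPARα targets tested besides Fabp1, 27 rose, beside 18.2% of all genes tested. Their median log2 change was 1.76, with a range of 0.34 to 6.92. That list shares genes with the oxidation, activation, peroxisome and droplet lists, Plin2 and Cidec among them, so the counts are not independent.

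The receptors changed in both directions. Of 10 nuclear receptors and partners 3 rose and 3 fell, with a median of 0.02. Ppara had 70.8 ± 6.50 CPM in Mttp_KO_CM and 56.1 ± 3.35 CPM in Mttp_flox_CM (log2 0.33, edgeR adjusted p = 2.9e-05). Pparg fell to 20.0 ± 2.27 CPM in Mttp_KO_CM, against 33.1 ± 2.84 CPM in Mttp_flox_CM (log2 -0.72, edgeR adjusted p = 1.1e-08). Ppard and Rxra, at 0.06 and 0.05, did not pass. Of 10 stellate and fibroblast markers tested 8 were lower and none higher, with summed levels of 51.1 to 58.4 CPM in Mttp_KO_CM and 94.8 to 106 CPM in Mttp_flox_CM.

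**Figure D5:**
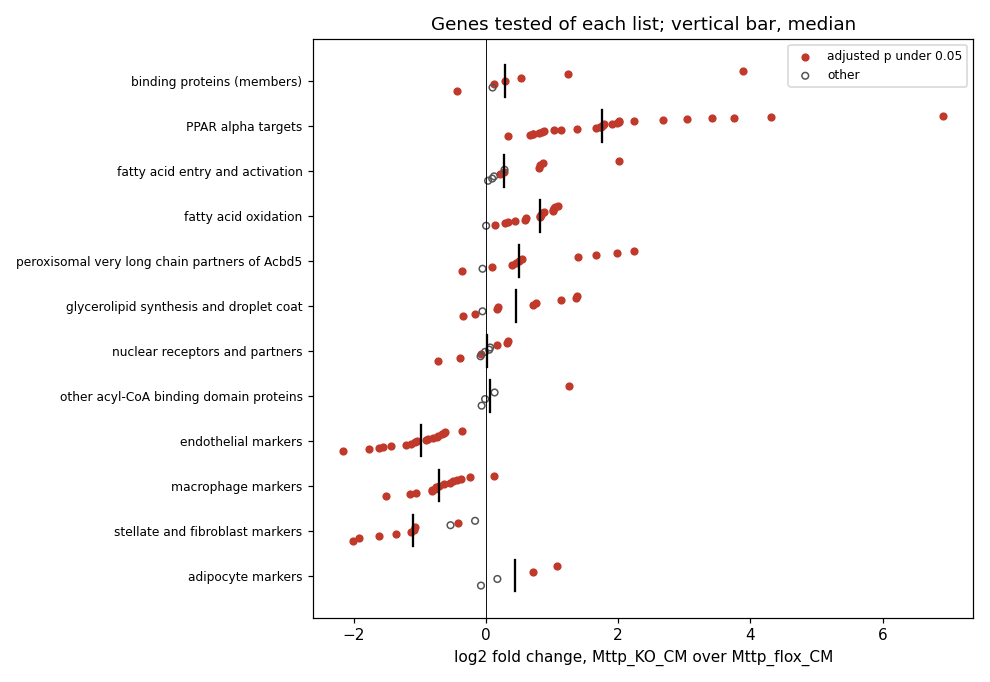
Log2 fold change of Mttp_KO_CM over Mttp_flox_CM for the genes tested in each list, 1 point per gene, with a vertical bar at the list's median. Filled points passed an adjusted p under 0.05 in edgeR. The medians run from -1.11 for stellate and fibroblast markers to 1.76 for PPARα targets, with the binding proteins in the top line.

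For each gene past the threshold, the 3 genes with the nearest pattern were found by the Euclidean distance between centred log2 CPM over the 10 libraries. Candidates were genes tested with a mean of at least 5 CPM and a symbol that is not a clone name. They numbered 10251 besides the member itself, where the member was among them. Fabp7, below that mean, was not. The profiles hold the difference between the groups and were not scaled, so genes of like fold change lie near each other. Nearness is a description with no test. Nearest to Fabp1 were Cyp4a14 at a distance of 0.608, Fbp2 at 0.684 and Acot1 at 0.934, with log2 changes of 3.75, 3.72 and 4.31. Nearest to Fabp2 were Insc at 0.380, Elmod3 at 0.412 and Klf4 at 0.486. For Dbi they were Pctp, a phosphatidylcholine transfer protein, at 0.106, and Ddx28 and Iba57, both at 0.208. For Acbd5 they were Qsox1 at 0.0770, Slc48a1 at 0.0859 and Psmb5 at 0.0922. Fabp7 lay nearest to Gja1 at 0.233, Scd2 at 0.241 and Arhgap29 at 0.244. Fabp4 lay nearest to Trim47 at 0.133, Ubr3 at 0.141 and Idh3b at 0.143, and Trim47 itself did not pass (edgeR, adjusted p = 0.222).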

How the data were processed

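Counts per gene and FPKM values were deposited by the authors as 2 tables with 10 library columns. The tools were HISAT2 2.0.5 and featureCounts 1.5.0-p3 with build GRCm39, per the submitters' processing notes. For strand and for reads matching several genes, the settings were not stated there. The deposited FPKM values equalled the count over the listed gene length and 1 constant per library. In each group, 1 column carried a number that no label gives. It was used as an unnumbered replicate of the group its letter names.

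Counts were tested in R 4.3.3 with edgeR 4.0.16 (quasi-likelihood, TMM, filterByExpr at 10 counts and a total of 15), which kept 14183 of 56748 genes and 99.8% of counts. P-values were adjusted by Benjamini-Hochberg over all genes tested, at a threshold of 0.05. Ratios to marker sums were computed in Python 3.11.15. The code was tested on simulated data. Alternatives included DESeq2 1.42.0, limma 3.58.1 (with pseudocounts of 1 and 0.1 on FPKM), other scalings, filters and libraries left out. Promoters came from RefSeq (GRCm38.p6). The members and lists were chosen with earlier results of these data known. Named genes were the 8 members, the 3 nearest patterns of each and genes of the lists. Of the listed genes, those with values in the text were chosen after their values were seen. Some genes of the lists are not reported here. Gene pairs that share a near-identical copy may share reads: Fabp5l2, related to Fabp5, had 0 counts and Fabp3-ps1 had 9 in all libraries.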

Additional observations from a re-analysis of the deposited data

Results flagged for a closer look

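In 28 groups of 5 libraries, 5 values lay apart from the other 4, by a gap of over 0.71 of the group's range. Chance alone gives such a value in about 1 of 20 groups of continuous values. That rate does not hold for Fabp3, whose counts of 0 to 5 leave gaps of this size by their discreteness, and the 28 groups are not independent, since the ratios reuse the same genes. Fabp1 in Mttp_flox_CM replicate 1 was at 28.3 CPM, with the other Mttp_flox_CM libraries at 19.8 to 21.3 CPM. Fabp3 in Mttp_KO_CM replicate 2 was at 0.351 CPM, from 5 counts, with the other Mttp_KO_CM libraries at 0 to 0.0714 CPM. Fabp3 in Mttp_flox_CM replicate 2 was at 0 CPM, with the others at 0.0620 to 0.0698 CPM, each from 1 count.

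The log2 ratio of Fabp4 to macrophage markers in Mttp_flox_CM replicate 1 was -3.46, with the others at -3.63 to -3.60. The log2 ratio of Fabp7 to endothelial markers in Mttp_KO_CM replicate 3 was -8.70, with the others at -8.90 to -8.87. Without Mttp_KO_CM replicate 2 the log2 fold change of Fabp4 was 0.0978 and its call was lost (edgeR, adjusted p = 0.0824). Leaving out any of the libraries named here moved no log2 fold change of another gene tested among the 8 across the threshold.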

How the results depend on the processing

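Over 22 alternatives the log2 fold changes kept their direction and their calls for Fabp1 (3.85 to 3.99), Fabp2 (1.14 to 1.32), Dbi (0.48 to 0.56) and Acbd5 (0.25 to 0.30), and Fabp5 never passed (0.06 to 0.13, adjusted p 0.0643 to 0.429). The alternative with a prior count of 2 changed the fold changes only and kept the main p-values, so its calls could not differ. The call of Fabp4 was lost under 5 of the 22 alternatives. With library size alone its log2 change was 0.0912 (adjusted p = 0.108), with limma on log2(FPKM + 1) it was 0.13 (adjusted p = 0.05), and leaving out 1 library at a time it ran from 0.10 to 0.15. Without both unnumbered libraries, 0 members were called lower and Fabp7 was at -0.36. With the replicate block over the 8 numbered libraries, 0 members were again lower and Fabp7 was at -0.36 (adjusted p = 0.095). That block rests on 4 shared numbers, and the labels do not say that a number marks a shared animal or day. The deviations of libraries with the same number correlated at -0.01 to 0.06 over the genes tested. Such correlations also hold counting noise, so they cannot decide whether the numbers pair the libraries. The cause of these losses was not tested. Genes called higher and lower were 2585 and 2571, and with library size alone 1982 and 3217. The log2 difference of the ratio of Fabp7 to macrophage markers ran from 0.04 to 0.20 over 12 alternatives. None of the marker ratios carries a test. Levels per kb moved with the mRNA length for Fabp4, Fabp5, Fabp7, Dbi and Acbd5. Depth limits Fabp3, with 12 counts in all.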
